A study of Mus musculus with 11 samples.

Results

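The genes described here are 40 genes of the endoplasmic reticulum (ER): chaperones, disulfide enzymes, the sensors and transcription factors of the unfolded protein response, and the machinery that moves proteins into the ER, out of it to the Golgi, or back to the cytosol for destruction. They were chosen by name and read from every array probe that carries a member's name. All 40 had a probe, and all 40 lay well above background on all 11 arrays, out of 21875 genes measured in the series. Manf appears in the files as Armet, Ero1b as Ero1lb and Sel1l as Sel1h. Total RNA of mouse lung was measured on 11 one-colour arrays. The mice were Foxa3 knockouts or their littermate controls, called wild type here, and received either saline or OVA. OVA usually stands for ovalbumin, an egg protein used as an allergen in mouse models of asthma. Saline was given to 3 wild-type and 2 Foxa3 knockout samples, and OVA to 3 samples of each genotype. The labels give no strain, age or sex, do not say which part of Foxa3 was deleted or how OVA was given, and do not say that each array is a separate animal, so the p-values measure the spread between these samples.

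The ER folds proteins that are to be secreted or placed in membranes. Chaperones such as BiP, encoded by Hspa5, hold unfolded chains, protein disulfide isomerases form and rearrange disulfide bonds, and proteins that fail to fold are drawn back to the cytosol and degraded, a process called ER-associated degradation. When unfolded proteins build up, the membrane proteins IRE1 (Ern1), PERK (Eif2ak3) and ATF6 (Atf6) signal to the nucleus through the transcription factors XBP1, ATF4 and the cleaved ATF6, which is the unfolded protein response. Airway mucous cells and plasma cells secrete heavily and are known for a large ER. FOXA3 is a forkhead transcription factor.

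Levels are log2 signals minus the 75th percentile of their array, so a level of 1 lies 1 doubling above that percentile. A level is compared only between arrays for the same probe. Differences are log2 differences ± their standard error. Adjusted p is Benjamini-Hochberg over all 21875 genes from 1 limma model of the 11 arrays, and a gene is said to have risen or fallen where it is under 0.05. The probe of Foxa3 checks the labels: it was detected above its background on all 6 arrays of wild type and on 0 of the 5 arrays from knockouts. Sftpc, Ager and Scgb1a1, which mark alveolar type II, alveolar type I and club cells of the lung, were well above background on all 11 arrays. The arrays lay on 3 slides, of which slides 1 and 2 hold 1 array of every group and slide 3 holds no knockout saline array. RNA came from whole tissue, so a change in the number of cells of a type and a change in RNA per cell cannot be told apart.

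After OVA in wild type, 13 of the 40 genes rose and 0 fell. By limma's unadjusted p, 23 (57.5%) were under 0.05, of which Herpud1 alone was lower, against 36.5% of all genes. Over all genes, 10.6% rose and 8.34% fell. In Foxa3 knockouts, 7 rose and 0 fell, where 6.17% of all genes rose and 1.96% fell. All 7 were among the 13. By the unadjusted p, 23 were under 0.05 here too, against 30.4% of all genes. The median difference over the 40 genes was 0.34 in wild type and 0.35 in knockouts, against 0.0020 and -0.028 over all genes. A positive difference was held by 34 of 40 genes (85%) in each genotype, against 50.2% and 47.3% of all genes. The 13 were spread over the chaperones (4 of 11), disulfide enzymes (3 of 5), degradation (3 of 7), translocation and signal peptide removal (2 of 6) and export (1 of 5). In limma 0 of the 6 sensors and transcription factors passed, and in that group 2 of 6 had an unadjusted p under 0.05 in wild type and 0 of 6 in knockouts. With 6 genes, and 10.6% and 6.17% of all genes rising in wild type and knockouts, this 0 says little about the group.

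**Figure D1:**
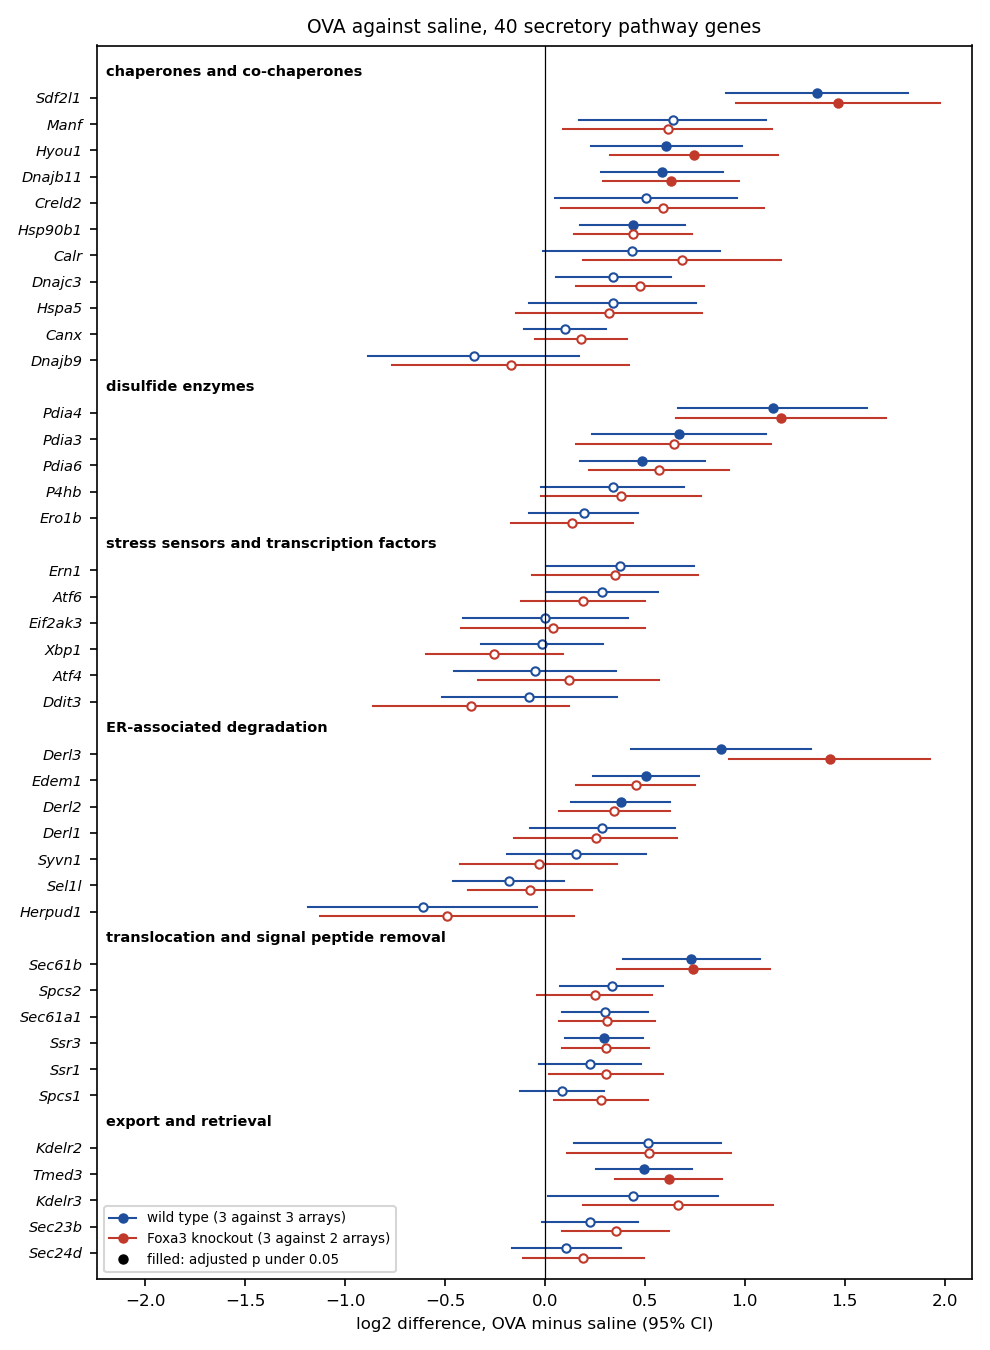
Log2 difference between OVA and saline with its 95% confidence interval for each of the 40 genes, grouped by role and ordered by the wild-type value, in wild type (blue, 3 against 3 arrays) and Foxa3 knockouts (red, 3 against 2 arrays). Filled points passed the adjusted p threshold of 0.05. Sdf2l1, Pdia4 and Derl3 lie farthest to the right, and the sensors and transcription factors hold no filled point.

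How many genes passed, and how far their share stood above that of all genes, depended on single arrays. Without wild-type saline 1, 2 or 3 the wild-type count was 3, 2 and 2. Without wild-type OVA 2 or 3 it was 3 and 4, and without wild-type OVA 1, the array that stood apart from the other 10 on a principal component, it was 17. Without wild-type saline 1, 2 or 3, 7.5%, 5% and 5% of the members rose, against 5.59%, 4.17% and 6.75% of all genes, so the share of members was near or below that of all genes there. Without wild-type OVA 2 or 3 the shares were 7.5% and 10%, against 4.25% and 3.90%, and without OVA 1 40% against 13.6%. Leaving out either knockout saline array, which changes only the estimate of the spread here, gave 7. The knockout calls rested on both saline arrays, since without either 1 array is left in that group. In knockouts the count was 2 without OVA 1 or OVA 3 and 9 without OVA 2. That is 5% of the members without OVA 1 or OVA 3, against 2.99% and 2.40% of all genes, and 22.5% against 8.75% without OVA 2. The count was 4 without any 1 of the wild-type saline arrays or wild-type OVA 3, and 11 without wild-type OVA 2. These are 10% and 27.5% of the members, against 4.05% to 4.78% and 6.88% of all genes. In wild type, Sdf2l1 and Pdia4 passed in each of the 11 fits with 1 array left out. Sec61b lost its call without wild-type saline 2 or 3 (highest adjusted p 0.0543). In knockouts Sdf2l1 and Derl3 lost theirs only without a saline array, where 1 array is left in that group (highest adjusted p 0.0741 and 0.0874).

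The slides also moved the values. Without slide 1, 2 or 3, 0%, 2.5% and 5% of the members rose in wild type, against 0.123%, 5.41% and 2.11% of all genes. With slide as a block, 8 of the 13 stayed past the threshold in wild type and 2 of the 7, Sdf2l1 and Derl3, in knockouts, which is 20% and 5% of the members against 8.55% and 3.47% of all genes. Within slides 1, 2 and 3 the median wild-type difference over the 40 genes was 0.28, 0.22 and 0.54, and 31, 34 and 35 genes were positive. Slide 3 gave the largest wild-type difference for 30 of 40 genes. In knockouts the median was 0.56 on slide 1 and 0.35 on slide 2. On every slide with both groups, 28 of 40 genes were positive in wild type and 32 of 40 in knockouts. The knockout count needs only 2 slides to agree and the wild-type count 3. The shares of all genes positive on each slide or on every slide were not counted, so these counts are not a result about the members.

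Promoters of 12 members held an exact match to 1 of 2 sequence elements, 10 to the first described here and 2 to the other. The ER stress response element, ERSE, is the textbook site through which ATF6 and XBP1, together with the CCAAT-binding factor NF-Y, act on chaperone genes. It was searched as the exact letters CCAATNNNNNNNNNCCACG on both strands of the 300 bases from 250 before to 50 after each RefSeq gene start (GRCm38.p6). Of the 40 genes, 34 had a promoter in the table; Hyou1, Atf6, Derl1, Sec61a1, Kdelr2 and Manf did not and were not searched. A gene was counted where any of its promoters held the letters. Of these 34, 10 (29.4%) held an exact ERSE, against 37 of 27025 genes (0.137%), the members included. The 10 were Hspa5, Hsp90b1, Calr, Canx, Dnajc3, Creld2, Pdia6, Ero1b, Syvn1 and Derl3. The shorter ERSE-II, searched as ATTGGNCCACG, was in the promoters of Dnajb11 and Herpud1 and in those of 12 of 27025 genes (0.0444%). A CCAAT letter run, which every ERSE also contains, was in the promoters of 27 of 34 members and of 41.1% of all genes. The core of the XBP1 site called UPRE, searched as TGACGTGG, was in those of Kdelr3 and Sec24d and of 0.714% of all genes. The amino acid response element to which ATF4 binds, searched as TGATGNAA, was in that of Herpud1 alone among the members. Over all genes 4.51% held it. These matches are letters in a window and say nothing of binding. The members include the chaperone genes on which ERSE is known to act. Their high share thus follows from the choice of genes and is no result of the arrays.

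The sequences below show where the match lies in 3 genes that rose in wild type (Hsp90b1, Pdia6, Derl3) and in 3 that did not pass the test (Hspa5, Creld2, Herpud1). Each runs over the 160 bases just before the RefSeq gene start, 5′ to 3′ on the gene's strand, with the exact ERSE or, in Herpud1, ERSE-II in capitals. Where the capitals begin with CGTGG, the element lies on the opposite strand.
Hspa5: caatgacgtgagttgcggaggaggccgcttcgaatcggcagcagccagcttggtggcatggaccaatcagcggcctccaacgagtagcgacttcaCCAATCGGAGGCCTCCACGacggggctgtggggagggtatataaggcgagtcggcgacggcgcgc
Hsp90b1: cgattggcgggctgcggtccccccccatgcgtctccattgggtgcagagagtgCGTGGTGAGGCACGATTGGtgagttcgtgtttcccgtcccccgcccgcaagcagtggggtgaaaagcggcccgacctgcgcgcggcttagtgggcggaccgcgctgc
Pdia6: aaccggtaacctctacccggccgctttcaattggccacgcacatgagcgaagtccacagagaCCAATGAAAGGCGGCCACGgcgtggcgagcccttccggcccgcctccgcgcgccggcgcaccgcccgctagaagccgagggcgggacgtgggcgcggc
Derl3: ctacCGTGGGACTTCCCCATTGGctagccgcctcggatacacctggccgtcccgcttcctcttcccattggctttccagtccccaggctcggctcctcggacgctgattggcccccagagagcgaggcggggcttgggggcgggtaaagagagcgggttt
Creld2: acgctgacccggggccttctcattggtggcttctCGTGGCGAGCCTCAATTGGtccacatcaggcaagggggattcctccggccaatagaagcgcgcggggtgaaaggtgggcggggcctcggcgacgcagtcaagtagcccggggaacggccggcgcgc
Herpud1: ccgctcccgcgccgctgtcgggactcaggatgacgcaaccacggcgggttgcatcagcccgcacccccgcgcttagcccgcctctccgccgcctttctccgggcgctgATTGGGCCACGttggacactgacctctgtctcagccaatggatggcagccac
The windows are chr2:34771930-34772089 on the plus strand for Hspa5, chr10:86705445-86705604 on the minus strand for Hsp90b1, chr12:17266429-17266588 on the plus strand for Pdia6, chr10:75893238-75893397 on the plus strand for Derl3, chr15:88819486-88819645 on the plus strand for Creld2 and chr8:94386269-94386428 on the plus strand for Herpud1 (GRCm38). Counted back from the gene start, the element spans bases -65 to -47 in Hspa5, -107 to -89 in Hsp90b1, -98 to -80 in Pdia6, -156 to -138 in Derl3, -126 to -108 in Creld2 and -52 to -42 in Herpud1. Hsp90b1 holds a second exact ERSE at -212 to -194, outside the stretch shown.

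Genes with and genes without an exact element were both among those that rose. Of the 12 genes with ERSE or ERSE-II, 4 rose in wild type (Derl3, Dnajb11, Pdia6 and Hsp90b1) and 2 in knockouts (Derl3 and Dnajb11), with medians of 0.39 and 0.46. Of the 13 that rose in wild type, 12 had a promoter to search (all but Hyou1), and 8 of those held no exact element, Sdf2l1 and Pdia4 included. Outside the members, 37 genes held an exact ERSE or ERSE-II and 19 were measured. Among those 19, 2 rose and 2 fell in wild type, with a median of -0.16, and 0 passed in knockouts, with a median of -0.24. No test was made of these shares.

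**Figure D2:**
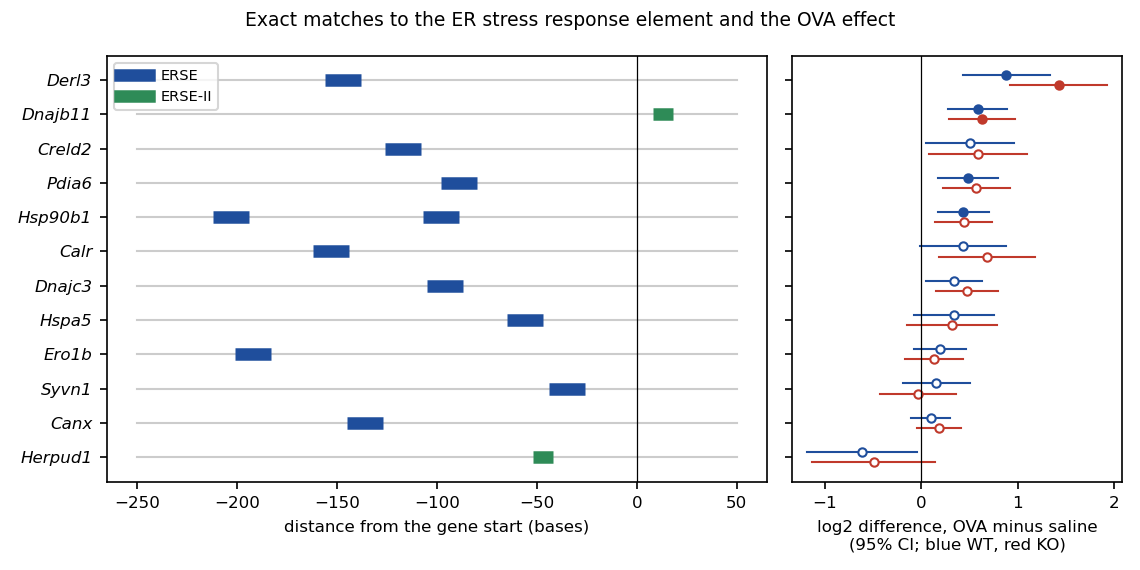
Left, the position of each exact ERSE (blue) and ERSE-II (green) in the promoters of the 12 members that hold one, in bases from the gene start at 0 (grey line, the window searched). Right, the log2 difference between OVA and saline with its 95% confidence interval in wild type (blue) and knockouts (red), filled where adjusted p was under 0.05. The matches lie before the start in 11 genes and after it in Dnajb11.

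Among the chaperones and their partners, 10 of 11 had a positive difference in each genotype by the probe used. Sdf2l1, a soluble ER protein that works with BiP and its J-protein Dnajb11, rose the most of the 40 genes. Its levels were 0.96, 1.18 and 1.07 in wild-type saline, 1.32 and 1.23 in knockout saline, 2.14, 2.91 and 2.24 in wild-type OVA and 2.98, 2.52 and 2.73 in knockout OVA. Every OVA array lay above every saline array. The rise was 1.36 ± 0.20 in wild type (2.57-fold, adjusted p 0.00493; slides 1 to 3, 1.28, 0.97 and 1.84) and 1.47 ± 0.23 in knockouts (2.77-fold, adjusted p 0.00822). With slide as a block the adjusted p was 0.0157 and 0.0318. Its probe lies at chr16:16680066-16680125 (mm7, the build of the array files).

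Dnajb11, the ER J-protein that brings client chains to BiP, lay at 3.06, 3.22 and 3.06 in wild-type saline, 3.20 and 3.25 in knockout saline, 3.51, 3.995 and 3.59 in wild-type OVA and 3.94, 3.77 and 3.86 in knockout OVA. It rose by 0.59 ± 0.13 in wild type (adjusted p 0.0222) and by 0.63 ± 0.15 in knockouts (adjusted p 0.0384). Here too no OVA array overlapped the saline arrays. Hyou1, a large chaperone that also resets BiP by exchanging its nucleotide, had levels of 1.97, 2.00 and 2.00 in wild-type saline, 2.14 and 2.36 in knockout saline, 2.52, 2.91 and 2.37 in wild-type OVA and 2.94, 3.26 and 2.78 in knockout OVA. Its rise was 0.61 ± 0.17 in wild type (adjusted p 0.0376) and 0.74 ± 0.19 in knockouts (adjusted p 0.0444). The lowest wild-type OVA array lay just above the highest knockout saline array. A second Hyou1 probe, designed to a cDNA record, gave 0.060 in wild type and -0.58 in knockouts and did not pass.

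Hsp90b1, which encodes the ER form of HSP90 and holds 2 exact ERSE matches, lay at 5.46, 5.54 and 5.37 in wild-type saline, 5.60 and 5.63 in knockout saline, 5.80, 6.10 and 5.78 in wild-type OVA and 6.20, 5.94 and 6.02 in knockout OVA. It rose by 0.44 ± 0.12 in wild type (adjusted p 0.0344, 0.0639 with slide as a block). In knockouts the difference was 0.44 ± 0.13 (adjusted p 0.0677), and the groups did not overlap in either genotype. Hspa5, the gene of BiP itself, did not pass in either genotype. Its levels were 4.96, 5.21 and 4.81 in wild-type saline, 5.18 and 4.94 in knockout saline, 5.44, 5.56 and 4.98 in wild-type OVA and 5.62, 5.28 and 5.24 in knockout OVA. Wild-type OVA 3 lay within the saline arrays, and the other OVA arrays above them. The difference was 0.34 ± 0.18 in wild type (adjusted p 0.217, 95% interval -0.078 to 0.75) and 0.32 ± 0.21 in knockouts (adjusted p 0.324). By slide the wild-type difference was 0.026, 0.24 and 0.75.

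The remaining 6 chaperones and partners did not pass in either genotype. Manf, a secreted ER protein, gave 0.64 ± 0.21 (adjusted p 0.059) in wild type and 0.61 ± 0.23 in knockouts, and Creld2, a disulfide-related ER protein, 0.51 ± 0.20 and 0.59 ± 0.22. Calr, the lectin chaperone calreticulin, gave 0.43 ± 0.20 and 0.68 ± 0.22, and its membrane partner calnexin, Canx, 0.098 ± 0.091 and 0.18 ± 0.10. The other 2 probes of Canx gave 0.57 and 0.45 in wild type, both with an adjusted p under 0.05 in a fit of single probes. Dnajc3, an inhibitor of PERK and BiP co-chaperone, gave 0.34 ± 0.13 and 0.48 ± 0.14. Dnajb9, a J-protein that acts on IRE1, was the 1 chaperone with a negative difference in both (-0.36 ± 0.23 and -0.17 ± 0.26), and its 6 OVA arrays ran from 0.16 to 1.16 around saline arrays of 0.65 to 1.02.

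The disulfide enzymes all had positive differences by the probe used. Pdia4, a protein disulfide isomerase with an extra catalytic domain, lay at 1.36, 1.53 and 1.43 in wild-type saline, 1.65 and 1.82 in knockout saline, 2.28, 3.12 and 2.33 in wild-type OVA and 2.87, 2.81 and 3.07 in knockout OVA. It rose by 1.14 ± 0.21 in wild type (2.20-fold, adjusted p 0.0108) and 1.18 ± 0.23 in knockouts (2.27-fold, adjusted p 0.0206). All OVA arrays lay above all saline arrays, and with slide as a block the adjusted p was 0.0237 and 0.0578. Pdia3, which acts on glycoproteins held by calnexin and calreticulin, lay at 3.52, 3.58 and 3.41 in wild-type saline and 3.79, 4.37 and 4.36 in wild-type OVA, a rise of 0.67 ± 0.19 (adjusted p 0.0426). In knockouts it went from 3.72 and 3.70 to 4.66, 4.04 and 4.35, a difference of 0.64 ± 0.21 (adjusted p 0.0891). Pdia6, an isomerase bound to BiP, went from 4.48, 4.65 and 4.47 to 4.95, 5.31 and 4.80 in wild type, a rise of 0.49 ± 0.14 (adjusted p 0.0415). Its knockout levels were 4.71 and 4.49 after saline and 5.22, 5.10 and 5.19 after OVA, a difference of 0.57 ± 0.15 (adjusted p 0.0553). For both isomerases each genotype's OVA arrays lay above its saline arrays, and with slide as a block the wild-type adjusted p was 0.0593 for Pdia3 and 0.0608 for Pdia6. P4hb, the founding isomerase, gave 0.34 ± 0.16 and 0.38 ± 0.18, and Ero1b, the oxidase that recharges the isomerases, 0.19 ± 0.12 and 0.13 ± 0.13. Neither passed in either genotype.

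**Figure D3:**
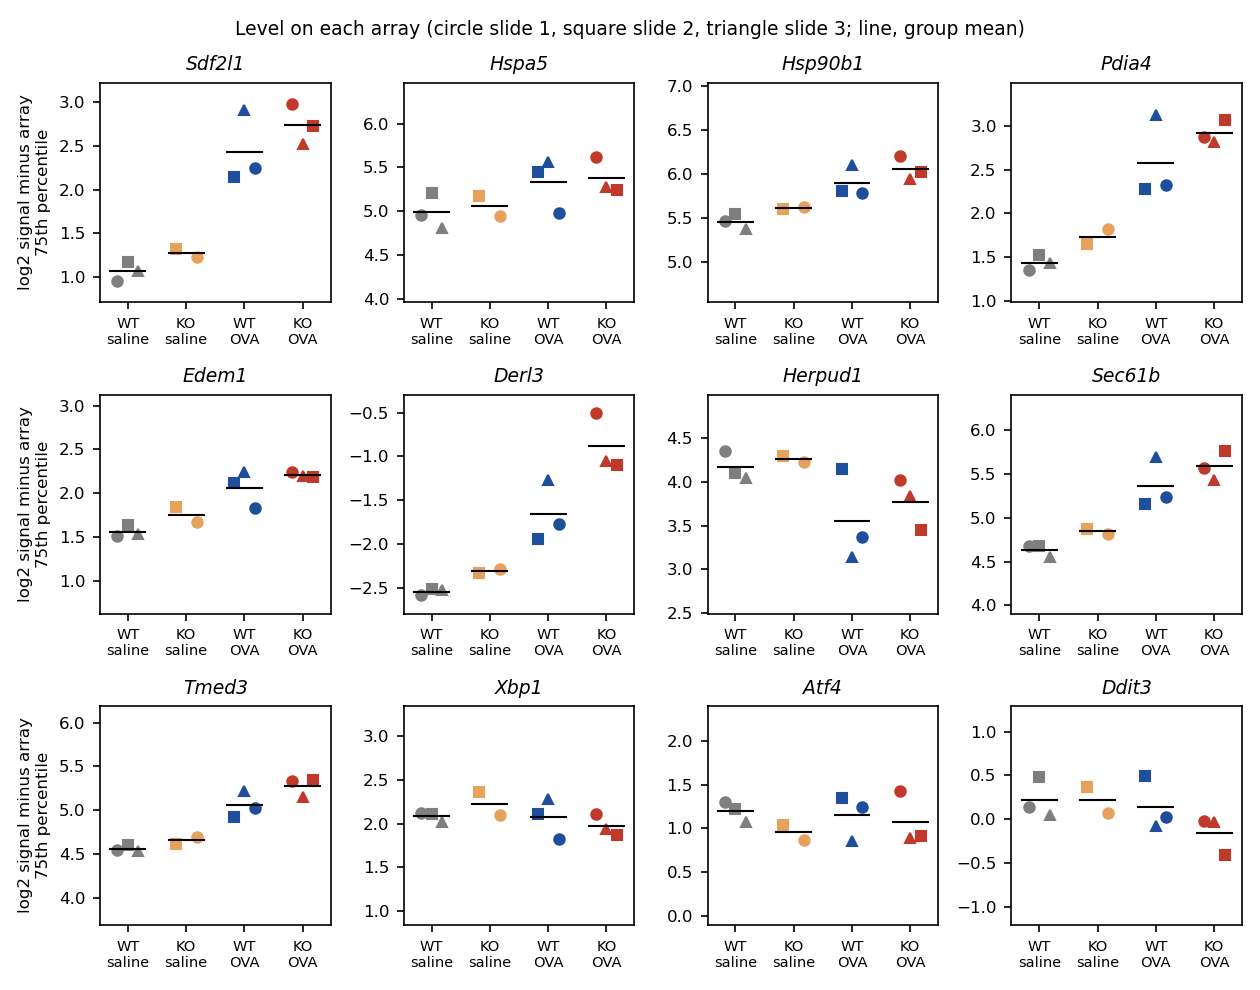
Level of 12 of the 40 genes on each array, as log2 signal minus the array's 75th percentile, in the 4 groups (circles slide 1, squares slide 2, triangles slide 3; lines, group means). Each panel spans 2.5 log2 units. The OVA arrays of Sdf2l1, Pdia4 and Derl3 lie above all saline arrays, while the wild-type OVA arrays of Xbp1, Atf4 and Ddit3 overlap them.

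The sensors and transcription factors of the unfolded protein response did not pass in either genotype. Xbp1, whose mRNA IRE1 splices, lay at 2.12, 2.11 and 2.02 in wild-type saline, 2.36 and 2.10 in knockout saline, 2.11, 2.28 and 1.83 in wild-type OVA and 2.11, 1.94 and 1.87 in knockout OVA. The difference was -0.014 ± 0.14 in wild type (95% interval -0.32 to 0.29) and -0.25 ± 0.15 in knockouts (-0.60 to 0.088). The groups overlapped, and a gene-level probe does not tell the spliced from the unspliced form. Atf4, whose protein is made when PERK slows translation, lay at 1.30, 1.22 and 1.07 in wild-type saline, 1.04 and 0.87 in knockout saline, 1.34, 0.86 and 1.25 in wild-type OVA and 1.43, 0.89 and 0.91 in knockout OVA. Its difference was -0.049 ± 0.18 (-0.45 to 0.36) in wild type and 0.12 ± 0.20 (-0.34 to 0.57) in knockouts. Ddit3, the ATF4 target also known as CHOP, lay at 0.13, 0.49 and 0.044 in wild-type saline, 0.37 and 0.069 in knockout saline, 0.49, -0.082 and 0.022 in wild-type OVA and -0.019, -0.031 and -0.41 in knockout OVA. The wild-type groups overlapped, and in knockouts the 3 OVA arrays lay below the 2 saline arrays. The difference was -0.078 ± 0.19 (-0.52 to 0.36) in wild type and -0.37 ± 0.22 (-0.86 to 0.12, adjusted p 0.282) in knockouts.

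Of the 3 sensors, Ern1, which encodes IRE1, lay at -2.57, -2.43 and -2.64 in wild-type saline, -2.50 and -2.62 in knockout saline, -2.17, -2.26 and -2.09 in wild-type OVA and -1.95, -2.61 and -2.07 in knockout OVA. The wild-type arrays did not overlap (difference 0.38 ± 0.16, adjusted p 0.134), while knockout OVA 2 lay within the knockout saline arrays (0.35 ± 0.18, adjusted p 0.231). Atf6 lay at 0.56, 0.87 and 0.93 in wild-type saline, 0.83 and 1.06 in knockout saline, 0.97, 1.16 and 1.102 in wild-type OVA and 1.09, 1.12 and 1.20 in knockout OVA. In each genotype the OVA arrays lay above the saline arrays. Its differences were 0.29 ± 0.12 (adjusted p 0.127) and 0.19 ± 0.14 (adjusted p 0.386), and its second probe gave 0.35 in wild type. Eif2ak3, which encodes PERK, lay at -0.19, 0.40 and 0.17 in wild-type saline, 0.45 and 0.29 in knockout saline, 0.26, 0.20 and -0.073 in wild-type OVA and 0.68, 0.34 and 0.21 in knockout OVA. The groups overlapped, with differences of 0.002 ± 0.18 (-0.41 to 0.41) and 0.041 ± 0.20 (-0.42 to 0.50).

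Genes of ER-associated degradation moved unevenly. Derl3, a derlin of the membrane channel that removes misfolded proteins, lay at -2.58, -2.52 and -2.53 in wild-type saline, -2.33 and -2.29 in knockout saline, -1.94, -1.27 and -1.77 in wild-type OVA and -0.51, -1.05 and -1.102 in knockout OVA. The 4 groups did not overlap at all, and they stood in that order. It rose by 0.88 ± 0.20 in wild type (1.84-fold, adjusted p 0.0212) and 1.42 ± 0.22 in knockouts (2.68-fold, adjusted p 0.00859). With slide as a block the adjusted p was 0.0379 and 0.0278. Its probe lies at chr10:75551409-75551468 (mm7). Edem1, a lectin that hands misfolded glycoproteins to degradation, went from 1.51, 1.63 and 1.53 to 2.12, 2.24 and 1.83 in wild type and from 1.84 and 1.67 to 2.24, 2.20 and 2.18 in knockouts. It rose by 0.50 ± 0.12 in wild type (adjusted p 0.023), and the knockout difference was 0.45 ± 0.13 (adjusted p 0.0639). Its lowest wild-type OVA array lay just under the highest knockout saline array. The other 2 probes of Edem1 gave 0.99 and 0.63 in wild type and 1.11 and 0.81 in knockouts, all 4 past the threshold in the fit of single probes.

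Derl2, another derlin, went from 3.09, 3.21 and 3.05 to 3.41, 3.68 and 3.38 in wild type, a rise of 0.38 ± 0.11 (adjusted p 0.0427), and from 3.28 and 3.28 to 3.66, 3.51 and 3.71 in knockouts, a difference of 0.35 ± 0.12 (adjusted p 0.0989). That call rests on the choice of probe: the probe used lies at chr11:71091528-71091587, and a second probe at chr11:71089119-71089178 (mm7, both on the minus strand) gave -0.48 in wild type. With the mean of both probes the wild-type difference was -0.049. Derl1 gave 0.29 ± 0.16 and 0.25 ± 0.18, and Syvn1, the ubiquitin ligase HRD1 at the centre of the channel, 0.16 ± 0.15 and -0.033 ± 0.17. Sel1l, the partner of HRD1, gave -0.18 ± 0.12 and -0.077 ± 0.14, with its 3 probes running from -0.18 to 0.74 in wild type. Herpud1, a stress-induced scaffold of the same channel that holds an ERSE-II, had the largest negative difference of the 40 genes, -0.61 ± 0.25 (adjusted p 0.114) in wild type and -0.49 ± 0.28 (adjusted p 0.272) in knockouts. Its levels were 4.36, 4.10 and 4.04 in wild-type saline and 4.15, 3.14 and 3.37 in wild-type OVA, where wild-type OVA 1 lay among the saline arrays. In knockouts it went from 4.29 and 4.22 to 4.02, 3.83 and 3.45, with every OVA array below both saline arrays. Without wild-type OVA 1 the wild-type difference was -0.91 and passed (adjusted p 0.0101), and with all arrays the wild-type difference on slides 1 to 3 was -0.99, 0.047 and -0.90.

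At the gate of the ER, all 6 genes of translocation and signal peptide removal had positive differences in both genotypes by the probe used. Sec61b, a subunit of the SEC61 channel, lay at 4.68, 4.67 and 4.55 in wild-type saline, 4.88 and 4.81 in knockout saline, 5.16, 5.70 and 5.24 in wild-type OVA and 5.57, 5.43 and 5.76 in knockout OVA. It rose by 0.73 ± 0.15 in wild type (1.66-fold, adjusted p 0.0163) and 0.74 ± 0.17 in knockouts (1.67-fold, adjusted p 0.0348). Every OVA array lay above every saline array. Ssr3, a subunit of the translocon-associated protein complex, went from 2.83, 2.91 and 2.82 to 3.10, 3.22 and 3.12 in wild type and from 2.97 and 2.98 to 3.35, 3.18 and 3.30 in knockouts, with differences of 0.29 ± 0.086 (adjusted p 0.0446, 0.0772 with slide as a block) and 0.30 ± 0.096 (adjusted p 0.0788). The channel pore Sec61a1 gave 0.30 ± 0.095 (adjusted p 0.056) and 0.31 ± 0.11, and the signal peptidase subunits Spcs2 and Spcs1 0.33 and 0.085 in wild type and 0.25 and 0.28 in knockouts. None of these 3 passed.

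The probes of Ssr1, a further subunit of the translocon-associated complex, went in opposite directions. The brightest, used here and lying at chr13:37397248-37397307 (mm7), gave 0.22 ± 0.11 in wild type and 0.31 ± 0.13 in knockouts and did not pass. A second at chr13:37402389-37402448 gave 0.50 and 0.80. The last, at chr13:37390573-37390632, designed to a cDNA clone and not to the RefSeq transcript, gave -1.50 in wild type and -0.81 in knockouts, both past the threshold in the fit of single probes. Of the 20 members with more than 1 kept probe, 13 had all their probes on the same side of 0 in wild type, and the other 7 (Dnajb9, Syvn1, Sel1l, Derl1, Derl2, Ssr1 and Ero1b) did not. In knockouts 12 of the 20 did, and 8 (Dnajb9, Hyou1, Syvn1, Sel1l, Derl1, Derl2, Sec61a1 and Ssr1) did not. In the fit of single probes, some members not called in knockouts had passing probes there. These were Canx (1 of 3), Dnajc3 (1 of 4), Edem1 (2 of 3), Ssr1 (2 of 3) and Ssr3 (1 of 3). Beside Canx and Ssr1, 4 members that did not pass by the probe used had another probe that did in wild type: Calr at 0.49, Dnajc3 at 0.54, Kdelr2 at 0.56 and Ero1b at 0.41. Among members called in wild type, 1 of 4 Pdia6 probes (0.18 to 0.49) passed in the fit of single probes. So did 1 of 2 for Hsp90b1 (0.42 and 0.44) and Hyou1, 2 of 3 for Ssr3 and 3 of 3 for Edem1. With the mean of each gene's kept probes, Pdia6, Hsp90b1 and Hyou1 did not pass.

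In export and retrieval all 5 genes had positive differences in both genotypes. Tmed3, a cargo receptor of the vesicles between ER and Golgi, lay at 4.55, 4.60 and 4.53 in wild-type saline, 4.62 and 4.69 in knockout saline, 4.92, 5.22 and 5.02 in wild-type OVA and 5.33, 5.15 and 5.35 in knockout OVA. It rose by 0.50 ± 0.11 in wild type (1.41-fold, adjusted p 0.0178) and 0.62 ± 0.12 in knockouts (1.54-fold, adjusted p 0.018). No OVA array overlapped a saline array. Kdelr2, a receptor that returns escaped chaperones to the ER, gave 0.51 ± 0.16 (adjusted p 0.0557) and 0.52 ± 0.18 (adjusted p 0.0984), and its relative Kdelr3 0.44 ± 0.19 and 0.66 ± 0.21. Sec23b and Sec24d, coat proteins of the vesicles that leave the ER, gave 0.22 and 0.11 in wild type and 0.35 and 0.19 in knockouts. None of these 4 passed.

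Foxa3 knockouts were then compared with wild type under each challenge. After saline, 0 of the 40 genes passed, where 0.0274% of all genes were higher and 0.0686% lower in knockouts. In limma 1 of the 40 had an unadjusted p under 0.05, Spcs2, at 0.30 ± 0.13. That is 2.5% of the members, against 3.25% of all genes. The median difference was 0.10 and 31 of 40 genes (77.5%) were higher in knockouts, against a median of 0.026 and 56.4% over all genes. After OVA, 0 of the 40 passed, where 0.0549% of all genes were higher and 0.151% lower. Here 3 had an unadjusted p under 0.05, Derl3, Hyou1 and Kdelr2, which is 7.5% of the members, near the 4.96% of all genes. The median was 0.15, and 34 of 40 (85%) were higher in knockouts, against a median of 0.016 and 53.6% over all genes. By the probe used, the 11 chaperones and partners were all higher in knockouts after OVA, as were the 7 degradation genes. Of the 6 sensors and transcription factors, 4 were lower. Of the 20 members with more than 1 kept probe, 10 had probes on both sides of 0 after OVA and 14 after saline. After OVA these included the chaperones Calr, Canx and Hyou1 and the degradation genes Syvn1, Sel1l and Edem1.

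**Figure D4:**
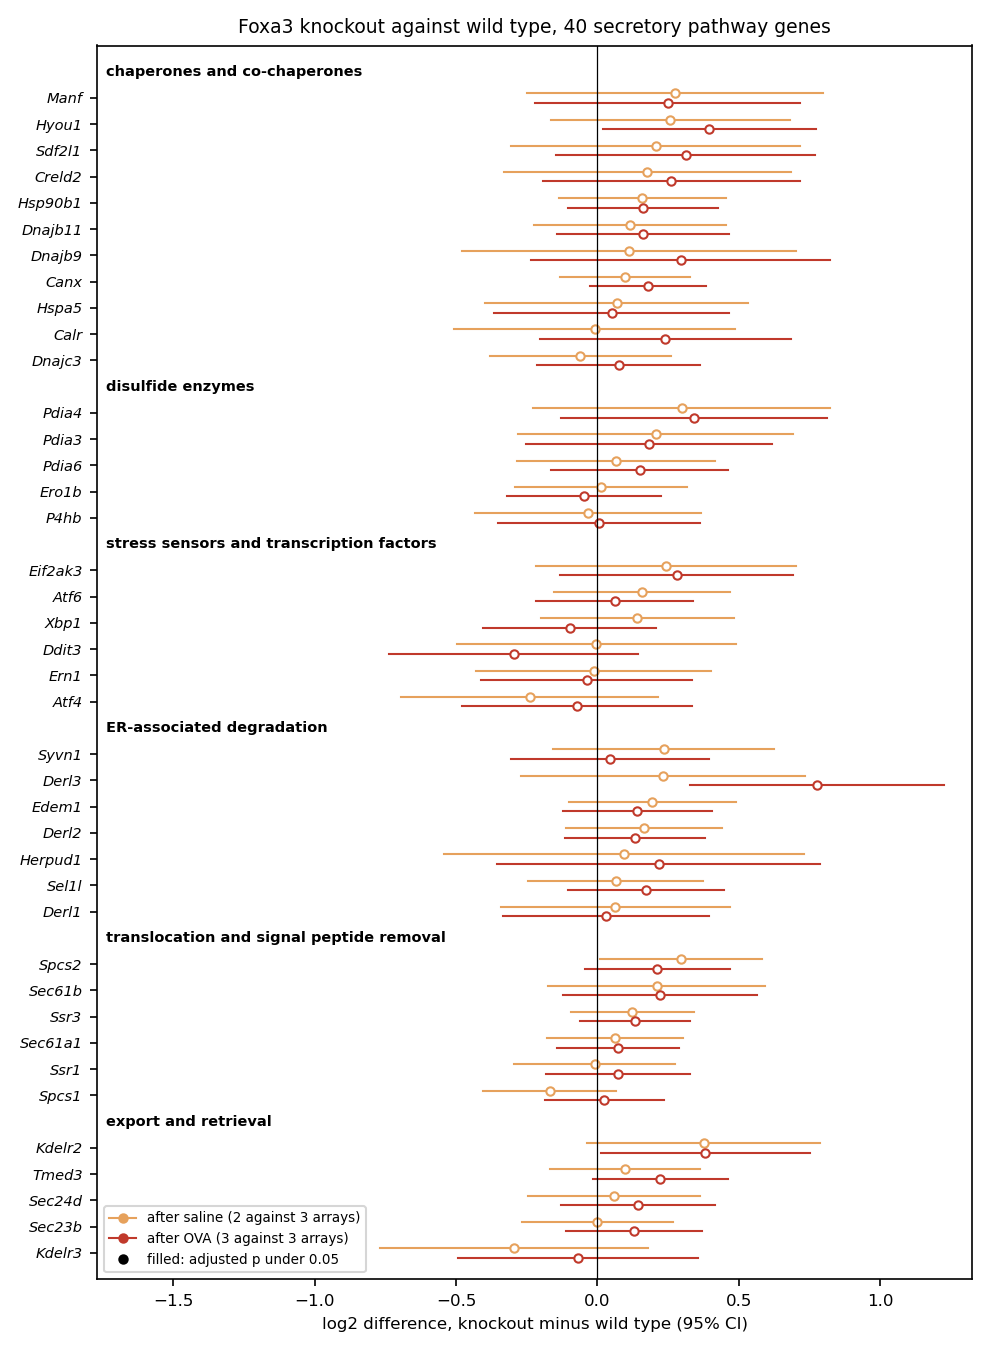
Log2 difference between Foxa3 knockout and wild type with its 95% confidence interval for each of the 40 genes, by role, after saline (orange, 2 against 3 arrays) and after OVA (red, 3 against 3 arrays). No point is filled, since none passed an adjusted p of 0.05. Derl3 after OVA lies farthest from 0.

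The largest genotype difference after OVA was that of Derl3. The knockout arrays, at -0.51, -1.05 and -1.102, lay above the wild-type arrays, at -1.94, -1.27 and -1.77. The difference was 0.78 ± 0.20 (1.71-fold, adjusted p 0.346), and on slides 1 to 3 it was 1.26, 0.84 and 0.23. Derl3 was the 1 member whose knockout OVA arrays did not overlap the wild-type OVA arrays. The share of all genes with such a separation was not counted, so this count is not a result about the members. After saline the Derl3 difference was 0.23 ± 0.22 (adjusted p 1.00). Hyou1 differed by 0.40 ± 0.17 after OVA (adjusted p 0.96; slides, 0.58, 0.25 and 0.35) and Kdelr2 by 0.38 ± 0.16 (adjusted p 0.97; slides, 0.23, 0.52 and 0.40). A second probe gave -0.60 for Hyou1, on the other side of 0, and 0.074 for Kdelr2. By the probes used, Derl3, Hyou1 and Kdelr2 were positive on all 3 slides, and 5 of the 40 members were so in all. The share of all genes that were was not counted. For most members the sign depended on the slide: 37 of 40 were higher in knockouts on slide 1 and 29 on slide 2, but 12 on slide 3, with medians of 0.35, 0.18 and -0.13 on the 3 slides. On slide 3 the wild-type array was OVA 2, which held the highest of the 3 wild-type OVA levels for 31 of 40 genes. On slide 1 the knockout array was OVA 1, the highest of its group for 27 of 40, and the wild-type array was OVA 3, the lowest of its group for 21.

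The difference between the OVA effects in knockouts and in wild type, the interaction, passed for 0 of the 40 genes. Over all genes, 0% passed with a larger effect in knockouts and 0.00457% with a smaller one. By limma's unadjusted p, 0 of the 40 were under 0.05, against 2.59% of all genes. The median over the 40 was 0.041, against -0.0055 over all genes, and the values ran from -0.29 for Ddit3 to 0.54 for Derl3. The 95% intervals show how large a difference the arrays leave possible: -0.58 to 0.79 for Sdf2l1, -0.66 to 0.75 for Pdia4, -0.13 to 1.22 for Derl3, -0.64 to 0.61 for Hspa5 and -0.70 to 0.22 for Xbp1. For genes called in wild type and not in knockouts, such as Edem1 (interaction -0.052 ± 0.18) and Hsp90b1 (0.0021 ± 0.17), a difference between the genotypes was thus not shown, and the knockout comparison holds 1 array fewer.

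Related genes outside the 40 were counted in lists by function. Of 32 further ER folding and disulfide enzymes, 4 rose in wild type, with a median of 0.073, among them Erp29 (0.72 ± 0.14, adjusted p 0.0137), an ER protein of the disulfide isomerase family, and Clgn (0.82 ± 0.23, adjusted p 0.0388), a relative of calnexin. In knockouts 3 rose, Erp29 (0.82), Erp44 (0.62) and Fkbp11 (0.94). Of 29 further genes of the translocon, signal peptidase and glycosyl transfer, 3 rose and 2 fell in wild type. Sec11c, a catalytic subunit of signal peptidase, gave 0.63 ± 0.14 (adjusted p 0.0218), and Sec61a2, the second gene of the channel pore, fell (-0.39 ± 0.099, adjusted p 0.0305). In knockouts Sec11c (0.93), Sec61g (0.66) and Ssr4 (0.69) rose and 0 fell. Of 24 further degradation genes, 0 passed in limma in either genotype, with 2 at an unadjusted p under 0.05 in wild type and 1 in knockouts. Of 40 measured coat proteins and cargo receptors, 1 rose (Copg1, 0.47) and 1 fell (Tmed7, -0.35) in wild type. In knockouts 0 passed in limma, with 7 at an unadjusted p under 0.05. Of 26 measured heat shock genes of the cytosol and mitochondria, 0 passed in either, with 3 at an unadjusted p under 0.05 in each genotype.

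Further regulators and targets of the stress pathways did pass. Of 21 sensors and regulators, 7 rose in wild type and 5 in knockouts, with medians of 0.047 and 0.15. Ern2, which encodes the second IRE1 protein and is known from mucous epithelia, rose by 1.28 ± 0.22 in wild type (adjusted p 0.00897) and 1.39 ± 0.25 in knockouts (adjusted p 0.0143). Bak1, a pro-apoptotic BCL2-family protein, rose by 1.29 ± 0.23 and 1.39 ± 0.26, and Creb3l4, an ER-bound transcription factor of the ATF6 kind, by 0.72 ± 0.14 and 0.90 ± 0.16. Of 24 targets of the integrated stress response, the pathway below PERK and ATF4, 7 rose and 1 fell in wild type, and 5 rose and 1 fell in knockouts. Vldlr, a lipoprotein receptor, fell in wild type (-1.02) and Trib3, a pseudokinase that ATF4 induces, in knockouts (-0.57), both named after their values were seen. Mthfd2, a mitochondrial folate enzyme, rose by 1.79 ± 0.20 (adjusted p 0.00201) and 1.80 ± 0.23 (adjusted p 0.00466), and Phgdh and Psat1, enzymes of serine synthesis, by 1.05 and 1.45 in wild type. Slc7a11, the cystine transporter, rose by 2.52 ± 0.48 in wild type (adjusted p 0.0122) and 3.53 ± 0.53 in knockouts (adjusted p 0.00767), and the difference between these, 1.00 ± 0.72, did not pass (adjusted p 1.00). Ddit3 and Atf4 of the same pathway did not pass, as given above.

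**Figure D5:**
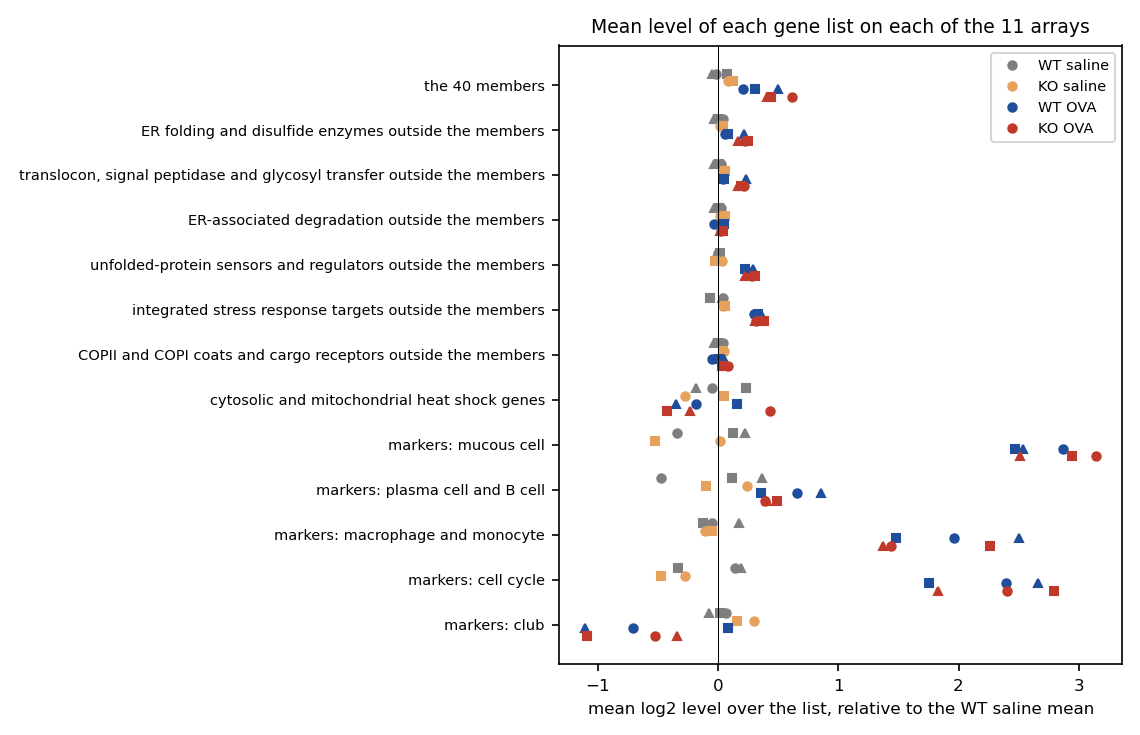
Mean log2 level over each gene list on each of the 11 arrays, relative to the wild-type saline mean (circles slide 1, squares slide 2, triangles slide 3). The 40 members lie between -0.049 and 0.12 on the saline arrays and between 0.21 and 0.61 on the OVA arrays, and the mucous cell, macrophage and cell cycle markers lie farther to the right after OVA.

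Markers of several cell types moved with the same comparison. Of 6 measured mucous cell markers, 6 rose in wild type and 5 in knockouts. Relative to the wild-type saline mean, their mean level ran from -0.35 to 0.23 in wild-type saline, -0.52 to 0.019 in knockout saline, 2.47 to 2.87 in wild-type OVA and 2.51 to 3.15 in knockout OVA. Of 8 macrophage and monocyte markers, 8 rose in wild type and 5 in knockouts, with mean levels of 1.48 to 2.51 and 1.37 to 2.26 after OVA against -0.12 to 0.17 in wild-type saline and -0.11 to -0.055 in knockout saline. Of 8 cell cycle genes, 8 rose in each genotype, with means of 1.75 to 2.66 and 1.83 to 2.80 after OVA against -0.34 to 0.19 in wild-type saline and -0.48 to -0.28 in knockout saline. Of 11 plasma cell and B cell markers, 2 rose in wild type (Irf4 and Mzb1) and 2 in knockouts (Irf4 and Jchain). In wild type 10 of the 11 had a positive difference, with a median of 0.69. In knockouts 5 of the 11 did, with a median of -0.0088. The mean of the 11 ran from -0.48 to 0.36 in wild-type saline and -0.10 to 0.24 in knockout saline. After OVA it was 0.36 to 0.86 in wild type and 0.39 to 0.49 in knockouts. All 11, the plasma cell markers Sdc1, Jchain and Tnfrsf17 included, were well above background on every array. The 3 club cell markers had a mean of -0.077 to 0.063 in wild-type saline and 0.16 to 0.30 in knockout saline, against -1.11 to 0.078 in wild-type OVA and -1.09 to -0.34 in knockout OVA. The 4 alveolar type I markers ran from -0.035 to 0.062 and -0.0076 to 0.097 after saline and from -0.41 to -0.0053 and -0.45 to -0.071 after OVA, and 0 members of either list passed in limma, with 1 club and 2 type I markers in wild type, and 2 and 2 in knockouts, at an unadjusted p under 0.05. Of 6 alveolar type II markers, 1 rose (Sftpd, 0.49) and 1 fell (Abca3, -0.71) in wild type. Markers of other tissues also varied between the groups. The 6 cardiac muscle markers had a mean of -0.32 to 0.18 in wild-type saline, -1.07 to -0.71 in knockout saline, -1.17 to -0.57 in wild-type OVA and -1.36 to -0.71 in knockout OVA. The liver gene Alb lay at 0.27 on wild-type saline 3 and between -6.33 and -3.46 on the other 10 arrays. For the 40 members the same mean was 0.21 to 0.49 in wild-type OVA and 0.41 to 0.61 in knockout OVA. The part of these cells and tissues in the members' values was not tested.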

How the data were processed

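Total RNA of mouse lung was labelled with Cy3 and hybridised to 11 one-colour Agilent arrays, per the labels' protocols. Per the file headers, each scanner file holds spot intensity processed by Agilent Feature Extraction 9.5.1.1 (9.1 in the submitters' processing notes), background-subtracted and detrended. The deposited value table holds log2 values and was used only as an alternative, since its normalization is not given in the sources used here. Its column medians all round to 7.67, its probe ranks follow each array's mean spot signal (rank correlation of at least 0.999), and its scaling step stays unknown.

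Processed intensities were taken as log2 minus each array's 75th percentile. Of 41174 probes other than controls, 32946 were kept because at least 2 of 11 arrays held them well above background, for 21875 genes named by accession, symbol or synonym through RefSeq's GRCm38.p6 gene table. Each gene was represented by its brightest kept probe; the 40 members had 74 kept probes. On the arrays 71.2% to 78.9% of probes were well above background, and with 2 or 3 arrays a group the number of arrays limits precision.

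One limma model (3.58.1, R 4.3.3) with a mean per group was fitted; tests were two-sided, and p was adjusted by Benjamini-Hochberg over all genes with a threshold of 0.05 (prior degrees of freedom 1.96, residual 7). The fit was tested on simulated data. Named with values on every array are the members called in any comparison and Hspa5, Xbp1, Atf4, Ddit3, Ern1, Atf6 and Eif2ak3; from each further list, at most the 3 called genes of smallest p. Members and lists were chosen with earlier results of these data known. Shared replicate numbers were checked: deviations of same-numbered arrays from their group means correlated between -0.40 and 0.34. For arrays of the same slide the range was -0.16 to 0.48. With 2 or 3 arrays a group these deviations are forced to sum to 0, so the check cannot settle whether the numbers pair arrays. Promoter letters come from RefSeq's table (GRCm38.p6). Alternatives were other background corrections, scalings, filters and probe summaries, a trended robust prior, only the groups compared, blocks for slide and replicate number, the deposited table, and fits without each slide or array.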

Additional observations from a re-analysis of the deposited data

How the results depend on the processing

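The members that passed after OVA were higher under each alternative that called any, except that in wild type 1 of the 2 called without slide 2 and 1 of the 17 without OVA 1 were lower; several alternatives called 0. Against 13 in wild type, 0 passed with normexp background correction, 7 with array median scaling, 8 without the filter on dim probes, 3 with only the groups compared, 8 with slide as a block and 0, 2 and 2 without slides 1, 2 and 3. Against 7 in knockouts, the same settings gave 0, 4, 4, 2, 2 and, without slides 1 and 2, 0 and 0; normexp without the spots of very bright local background gave 11, and 13 passed both with the trended robust prior and in the authors' deposited values. Plain normexp includes such spots on only 1 saline array of wild type (replicate 2, 7 spots) and on OVA 1 (5 spots); without them 14 passed in wild type, and the median over all genes there moved from 0.0020 to 0.11. Leaving out 1 array gave 2 to 17 in wild type and 0 to 11 in knockouts. With the replicate number as a block 10 passed in wild type and 4 in knockouts. In wild type 0% of members rose with normexp, 17.5% with median scaling, 20% unfiltered and 7.5% with only the groups compared. Over all genes it was 0.0503%, 8.34%, 7.40% and 6.62%. In knockouts these settings gave 0%, 10%, 10% and 5%, against 0%, 4.67%, 3.51% and 1.86%. Normexp without bright spots gave 27.5% against 6.39%, the trended robust prior 32.5% against 8.17% and the deposited values 32.5% against 7.50%. Same-numbered arrays deviated together (correlation over 0.1) in 4 of 15 pairs, and arrays of the same slide in 12 of 15. Whether the replicate numbers pair arrays cannot be told from this. No member passed in either genotype comparison or in the interaction under any alternative run; the interaction has no fit with only the groups compared. Derl2 in wild type turned from 0.38 to -0.049 with the mean of its 2 probes, which differ in sign; the cause of the other changes was not tested. Of all calls in wild type, 55.9% were higher, against 50.2% with median scaling and 47.4% in the deposited table; in knockouts the share was 75.9%, against 62.3% with normexp without bright spots, 75.1% and 57.3%. Leaving out 1 array moved the wild-type share to between 47.1% (without wild-type OVA 1) and 87.4% (without wild-type OVA 2; 84.6% without OVA 3 and 82.5% without wild-type saline 2), and leaving out slide 3 to 90.6%; in knockouts it ran from 56.9% (without wild-type OVA 1) to 96.5% (without knockout OVA 3). All 40 members were well above background on every array.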
